A study of Mus musculus with 6 samples.

Results

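The genes described here are 41 interferon-stimulated genes, those whose transcription rises when a cell is exposed to interferon, taken by gene symbol from a named list. All 41 were found among the 26286 genes of the deposited count tables. They comprise 22 antiviral effectors, 6 sensors of foreign nucleic acid, 5 protein modifiers or regulators, 2 guanylate-binding proteins, 4 immunity-related GTPases and the 2 chains of the type I interferon receptor. Members were matched by symbol, with no threshold on a measured value.

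The study compared 2 populations of regulatory T cells (Treg), CD4+ T cells that hold immune responses in check and are defined by the transcription factor Foxp3. CD4+ CD25high cells came from C57BL/6 mice with a Blimp1/GFP reporter, whose spleens and lymph nodes were pooled before the sort, and all sample titles have the prefix BlimpHet. The GFP+ cells, which report Blimp-1 (gene Prdm1), were set against the GFP- cells of such mice, with 3 libraries each that the study's design calls biologically independent. One library of each population was made by poly(A) selection (GFP+ replicate 19, GFP- replicate 20), and the remaining libraries by a single-cell protocol that amplifies small amounts of RNA, applied to bulk RNA of the sorted cells (replicates 1 and 4 of GFP+ cells and replicates 2 and 5 of GFP- cells). The titles give the replicate numbers. The age of the animals is not given in the sources used here. The libraries are bulk RNA, in which fewer cells that express a gene and less RNA of it per cell cannot be told apart.

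Type I interferons bind a receptor made of Ifnar1 and Ifnar2, which activates Jak1 and Tyk2. The signal ends in a complex that contains Stat2 and Irf9 and binds a short promoter motif, the interferon-stimulated response element (ISRE). Interferon gamma acts through its own receptor, and it is the main inducer of the guanylate-binding proteins and immunity-related GTPases, which attack the vacuoles of intracellular microbes. Most cells, T cells included, keep a low level of many of these transcripts without infection.

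The libraries held 28354321 (GFP+ replicate 19), 17539208 (GFP+ replicate 1) and 17601420 (GFP+ replicate 4) counts, against 27221562 (GFP- replicate 20), 16317061 (GFP- replicate 2) and 15224051 (GFP- replicate 5) counts. Levels are given as CPM, which are counts relative to library size, scaled by TMM, a trimmed mean of ratios between libraries, in the order of replicates 19, 1 and 4 for GFP+ cells and 20, 2 and 5 for GFP- cells. Since the protocols differ, groups are compared within a protocol. Prdm1, the gene that defines the sort, had 152, 44.3 and 29.5 CPM in GFP+ libraries, against 9.13, 2.46 and 2.66 CPM in GFP- libraries. Foxp3 had 1233, 2624 and 1940 CPM in GFP+ libraries, against 1097, 1662 and 2210 CPM in GFP- libraries. The single-cell protocol table listed 0 for nearly all genes of 3 chromosomes: of the 2238 genes on chromosomes 3, 8 and 9 with at least 10 counts in the poly(A) pair, 2237 had 0 counts in all 4 single-cell protocol libraries. Ifi44, Gbp2 and Gbp3 lie on chromosome 3 and Bst2 on chromosome 8, so these 4 genes have values from the poly(A) pair only.

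GFP+ libraries also held more RNA of macrophage genes. Of 19 macrophage markers with a row in the count data, 17 were tested and 16 of them rose in GFP+ cells, with a median log2 fold change of 5.63. Their summed level was 1046, 1671 and 2015 CPM in GFP+ libraries, against 186, 85.0 and 73.4 CPM in GFP- libraries. Csf1r, the receptor of a macrophage growth factor, had 237, 332 and 295 CPM in GFP+ libraries, against 2.85, 4.20 and 3.80 CPM in GFP- libraries. Itgam was at 0 in GFP- replicates 2 and 5, and Cybb was the tested marker that did not pass the test. Fcgr1 and Ctss, the markers not tested, were listed at 0 in all 4 single-cell protocol libraries. Their 0 cannot be read as absence, since that table listed 0 for nearly all genes of whole chromosomes. Macrophages also express interferon-stimulated genes, and the part of these markers in the results that follow was not tested.

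Of the 37 tested members 5 passed the test, a share close to the 13.5% of all tested genes, and they went both ways. Of the 37 members that could be tested in all 6 libraries, 1 rose in GFP+ cells (Oas1a), 4 fell (Usp18, Oasl2, Ifit2 and Ifit1) and 32 did not pass the test, which was edgeR's quasi-likelihood test with the protocol as covariate and a Benjamini-Hochberg adjusted p under 0.05 over all 10523 tested genes. That is 2.70% higher and 10.8% lower, where 13.5% of all tested genes passed, 9.81% higher and 3.68% lower in GFP+ cells. At an unadjusted p under 0.05 edgeR had 10 of the 37 members, against 26.9% of all tested genes. DESeq2 called 1 member higher and 6 lower, where it called 11.4% of all tested genes higher and 6.79% lower. The median log2 fold change of the 37 members was -0.26, against -0.08 over all tested genes, and the members ranged from -2.13 to 1.30. A log2 fold change above 0 was found for 8 members and one below 0 for 29, where 4610 of all 10523 tested genes were above 0 and 5913 below. The members' split was 11 above and 26 below with library totals only, and 12 and 25 with limma-voom. In these settings the median over all tested genes was 0.01 and -0.06. The members below that median numbered 26 in the main fit, 26 with library totals only and 24 with limma-voom. When genes were scored by whether every GFP+ library lay on one side of every GFP- library of the same protocol, 2 members were higher in all 5 such comparisons (21.3% of all tested genes) and 11 were lower (19.3% of all tested genes). In simulated data modelled on the same libraries, with 100 genes changed 4-fold and 100 changed 2-fold, the test found 94% and 20% of them. Far fewer genes were changed there than the 1419 called in these data, which makes the adjusted threshold stricter there. The 20% can therefore not be read as the share found in these data. Of the 37 members, 32 had a log2 fold change between -1 and 1.

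**Figure D1:**
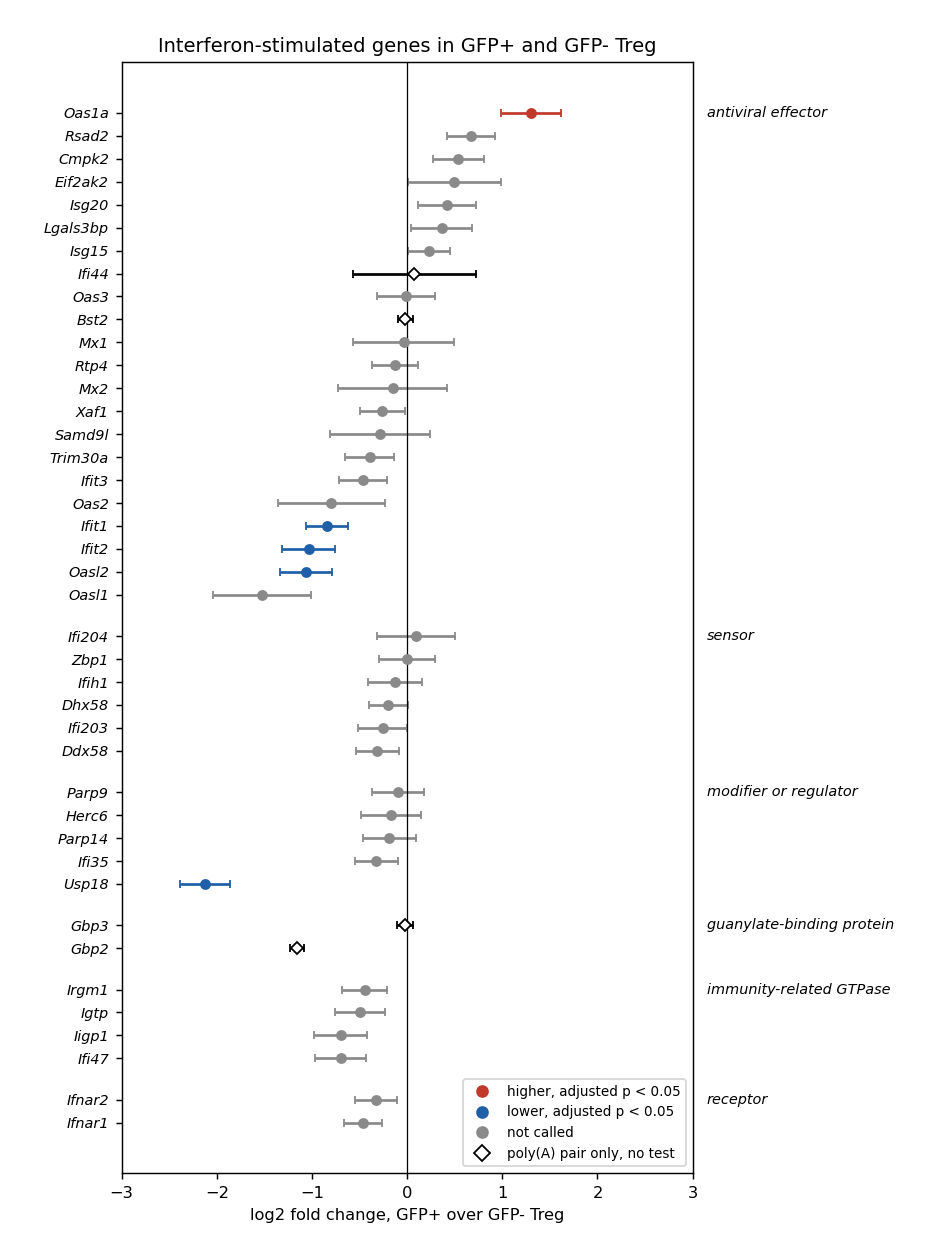
Log2 fold change of GFP+ over GFP- cells for each of the 41 members, grouped by role, with its standard error from the 6-library fit; diamonds are the 4 members with poly(A) values only, with a 95% counting interval. Usp18 lies farthest to the left at -2.13 and Oas1a farthest to the right at 1.30, while the sensors lie between -0.32 and 0.09.

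The promoters of 4 members are shown because they carry the ISRE, the motif that defines the response, in genes with different values in these cells: Oas1a rose, Ifit1 fell, Isg15 did not pass the test and Gbp2 was measured in the poly(A) pair only. Each is the stretch from 250 bases before to 50 after the RefSeq gene start, 5′ to 3′ on the gene's strand, from build GRCm38.p6. The windows are chr5:120907476-120907775 on the minus strand for Oas1a, chr19:34640639-34640938 on the plus strand for Ifit1, chr4:156200769-156201068 on the minus strand for Isg15 and chr3:142620413-142620712 on the plus strand for Gbp2. Capitals mark the ISRE, searched on both strands as GAAA, any 2 bases and GAAA again, and where matches overlap the capitals run on.
Oas1a promoter: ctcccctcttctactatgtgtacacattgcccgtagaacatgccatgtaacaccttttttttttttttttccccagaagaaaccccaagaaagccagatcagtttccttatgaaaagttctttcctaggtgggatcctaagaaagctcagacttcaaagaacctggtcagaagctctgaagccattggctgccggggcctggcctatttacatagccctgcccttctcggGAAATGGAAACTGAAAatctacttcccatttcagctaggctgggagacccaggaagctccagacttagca
Ifit1 promoter: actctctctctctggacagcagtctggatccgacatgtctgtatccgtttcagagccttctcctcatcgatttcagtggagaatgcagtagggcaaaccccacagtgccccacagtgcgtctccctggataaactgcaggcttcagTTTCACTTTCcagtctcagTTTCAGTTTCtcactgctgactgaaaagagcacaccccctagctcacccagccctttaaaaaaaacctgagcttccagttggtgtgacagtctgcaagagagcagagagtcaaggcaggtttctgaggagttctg
Isg15 promoter: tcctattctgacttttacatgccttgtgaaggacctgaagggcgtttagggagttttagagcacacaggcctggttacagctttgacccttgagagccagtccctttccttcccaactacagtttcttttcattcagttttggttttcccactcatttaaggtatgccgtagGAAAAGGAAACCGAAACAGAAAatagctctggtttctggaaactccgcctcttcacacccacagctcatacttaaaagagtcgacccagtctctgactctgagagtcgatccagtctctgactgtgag
Gbp2 promoter: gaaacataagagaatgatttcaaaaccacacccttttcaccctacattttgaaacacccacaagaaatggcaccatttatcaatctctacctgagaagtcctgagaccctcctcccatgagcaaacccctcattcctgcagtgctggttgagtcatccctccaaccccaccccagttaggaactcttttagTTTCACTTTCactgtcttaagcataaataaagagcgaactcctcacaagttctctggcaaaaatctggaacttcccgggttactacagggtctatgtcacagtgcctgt

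Oas1a held 2 overlapping matches that begin 20 and 14 bases before the start, and Isg15 held 3 that begin 78, 72 and 66 bases before it. Ifit1 held 2 separate matches on the opposite strand, 104 and 85 bases before the start, and Gbp2 held 1 on the opposite strand, 59 bases before it. A RefSeq promoter was found for 30 of the 41 members, of which 16 held the motif (53.3%). The share was 40.3% in 77 other interferon-stimulated genes and 3.99% in all 27025 genes with a promoter in that table. The gamma-activated site, searched as TTCNNNGAA, which reads the same on both strands, was in 9 of the 30 members (30%) and in 9.55% of all promoters. Of the 5 members that moved, Usp18 has no entry in that table. Ifit2 and Oasl2 had no ISRE match in these windows, while the motif was present both in Oas1a, which rose, and in Ifit1, which fell.

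The receptor chains did not pass the test, although both had lower values in GFP+ cells in every comparison within a protocol. Ifnar1 had 89.0, 14.6 and 12.7 CPM in GFP+ libraries, against 122, 18.8 and 18.9 CPM in GFP- libraries (log2 fold change -0.47 ± 0.20 SE, edgeR adjusted p = 0.182). Ifnar2 had 58.1, 96.1 and 117 CPM in GFP+ libraries, against 78.3, 131 and 127 CPM in GFP- libraries (log2 fold change -0.33 ± 0.22, edgeR adjusted p = 0.385). Neither gene's groups overlapped within a protocol, as for the 19.3% of all tested genes that were lower in all 5 such comparisons. At an unadjusted p under 0.05 in edgeR 1 of the 2 chains was lower, and DESeq2 and limma-voom called 0.

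Usp18 showed the clearest fall. It encodes the protease that removes the ubiquitin-like protein Isg15 from its targets and also binds Ifnar2 to damp interferon signalling. Its level was 5.59, 9.57 and 12.8 CPM in GFP+ libraries, against 21.8, 40.6 and 63.6 CPM in GFP- libraries. The highest GFP+ library lay below the lowest GFP- library, also across protocols. The log2 fold change was -2.13 ± 0.26 (SE, n = 3 libraries each, edgeR adjusted p = 0.00102). It was -2.23 in the single-cell protocol libraries alone (edgeR adjusted p = 0.00479) and -1.92 as the log2 ratio of the poly(A) pair. In the RefSeq annotation the span of Usp18 overlaps that of the predicted gene Gm44148, whose reads may be shared.

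Of the other modifiers and regulators, none passed the test. Parp9 and Parp14, which belong to the ADP-ribosyltransferase family, had log2 fold changes of -0.10 ± 0.27 and -0.19 ± 0.28. Herc6, in mice the ligase that attaches Isg15 to proteins, had -0.17 ± 0.32. Ifi35 had -0.32 ± 0.23 and lay lower in GFP+ cells in all 5 comparisons, with 8.16, 138 and 103 CPM in GFP+ libraries, against 11.4, 143 and 142 CPM in GFP- libraries.

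The oligoadenylate synthetase family held both the gene that rose, Oas1a, and one that fell, Oasl2. Oas1a makes the 2′-5′ oligoadenylates that activate RNase L when double-stranded RNA is present. It had 26.4, 80.0 and 121 CPM in GFP+ libraries, against 12.8, 24.6 and 50.1 CPM in GFP- libraries. Every GFP+ library was higher than every GFP- library of its protocol, as for 21.3% of all tested genes. The log2 fold change was 1.30 ± 0.32 (edgeR adjusted p = 0.0267). The call was lost without GFP+ replicate 19, 1 or 4 or GFP- replicate 20 (edgeR adjusted p 0.0761, 0.0621, 0.0748 and 0.0795), with log2 fold changes of 0.99 to 1.59 over all libraries left out in turn. Oas1g, named here because it is a close copy of Oas1a next to it, had a log2 fold change of 1.23 ± 0.29 (edgeR adjusted p = 0.0237), and how reads were divided between the copies is not known.

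Oasl2, a synthetase-like gene, had 4.76, 2.78 and 4.42 CPM in GFP+ libraries, against 8.45, 8.12 and 8.48 CPM in GFP- libraries. The groups did not overlap, also across protocols (log2 fold change -1.06 ± 0.27, edgeR adjusted p = 0.0348). Oasl1, which in mice restrains the translation of Irf7, had 1.99, 1.15 and 3.34 CPM in GFP+ libraries, against 5.58, 3.04 and 10.6 CPM in GFP- libraries. GFP+ replicate 4 lay above GFP- replicate 2, and the log2 fold change of -1.53 ± 0.52 did not pass the test (edgeR adjusted p = 0.0929). It passed without GFP- replicate 2 (edgeR adjusted p = 0.0169), with no filter on low counts (edgeR adjusted p = 9.5e-05) and in DESeq2 (adjusted p = 0.0283). Oas2 was low, with at most 1.28 CPM in any library, and Oas3 had a log2 fold change of -0.01 ± 0.31.

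The Ifit genes, whose proteins bind foreign RNA and block its translation, were lower in GFP+ cells in all 5 comparisons. Of all tested genes 19.3% were. Ifit1 had 11.4, 23.6 and 26.9 CPM in GFP+ libraries, against 17.6, 55.3 and 42.4 CPM in GFP- libraries (log2 fold change -0.84 ± 0.22, edgeR adjusted p = 0.0367). Ifit2 had 9.74, 6.71 and 5.87 CPM in GFP+ libraries, against 19.8, 16.6 and 9.12 CPM in GFP- libraries (log2 fold change -1.04 ± 0.27, edgeR adjusted p = 0.0396). Ifit3 did not pass the test (6.39, 14.4 and 11.6 CPM in GFP+ libraries, against 7.91, 22.9 and 14.9 CPM in GFP- libraries, log2 fold change -0.47 ± 0.25, edgeR adjusted p = 0.279). The call of Oasl2 was lost without any one GFP+ library or GFP- replicate 20, with edgeR adjusted p of 0.169, 0.128, 0.0668 and 0.176. Those of Ifit1 and Ifit2 were lost without any one GFP+ library, GFP- replicate 20 or GFP- replicate 2, with edgeR adjusted p of up to 0.199 and 0.229. All 3 were also lost when libraries were scaled by their totals alone, with edgeR adjusted p of 0.164 (Oasl2), 0.242 (Ifit1) and 0.127 (Ifit2). The span of Ifit1 overlaps that of Ifit1bl1, whose reads may be shared.

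**Figure D2:**
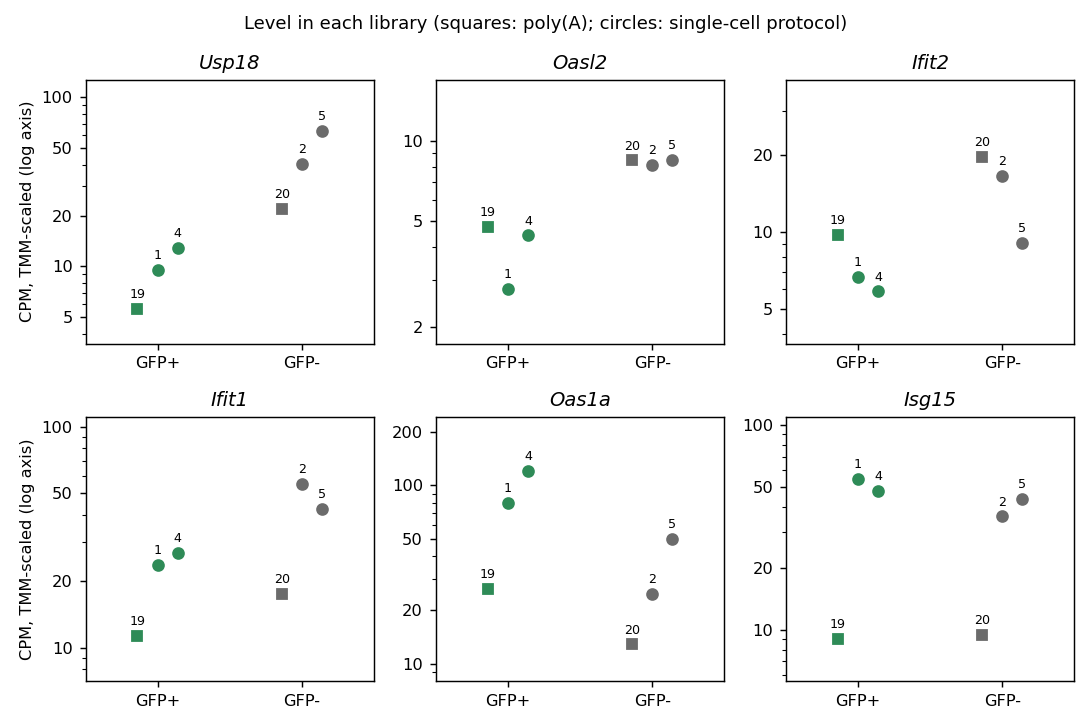
TMM-scaled CPM on a log axis in each library of Usp18, Oasl2, Ifit2, Ifit1, Oas1a and Isg15, GFP+ left of GFP-, with squares for the poly(A) libraries. Usp18 at 5.59 to 12.8 CPM in GFP+ libraries lies below its 21.8 to 63.6 CPM in GFP- libraries, and Oas1a lies higher in GFP+ cells within each protocol. Isg15 lies higher in GFP+ cells in the single-cell protocol libraries and slightly lower in the poly(A) pair.

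The other antiviral effectors did not pass the test. Isg15, the ubiquitin-like protein that Usp18 removes, had 8.99, 54.7 and 47.8 CPM in GFP+ libraries, against 9.43, 35.8 and 43.4 CPM in GFP- libraries, with the poly(A) pair in the opposite order to the others (log2 fold change 0.23 ± 0.22, edgeR adjusted p = 0.558). Rsad2 (viperin, a radical enzyme that makes a chain-ending nucleotide) had 4.29, 6.14 and 8.27 CPM in GFP+ libraries, against 2.80, 4.42 and 4.43 CPM in GFP- libraries. It was the other member higher in all 5 comparisons, as were 21.3% of all tested genes (log2 fold change 0.67 ± 0.26, edgeR adjusted p = 0.134). Cmpk2, its neighbour in the genome and a mitochondrial nucleotide kinase, had a log2 fold change of 0.54 ± 0.27. The exonuclease gene Isg20 had 37.1, 218 and 112 CPM in GFP+ libraries, against 31.2, 137 and 95.7 CPM in GFP- libraries, with a log2 fold change of 0.42 ± 0.30.

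Eif2ak2 (PKR, the kinase that stops translation on double-stranded RNA) and Lgals3bp (a secreted galectin-binding protein) had log2 fold changes of 0.50 ± 0.49 and 0.36 ± 0.32. The dynamin-like GTPases Mx1 and Mx2 had -0.04 ± 0.53 and -0.15 ± 0.57, and Mx2 ran from 0.253 to 2.39 CPM within the GFP- libraries. Trim30a, Samd9l, Rtp4 and Xaf1 had log2 fold changes of -0.39, -0.29, -0.13 and -0.26. Bst2 (tetherin, which holds virions at the cell surface) was measured in the poly(A) pair only, with 2497 counts in GFP+ replicate 19 and 2430 in GFP- replicate 20, a log2 ratio of -0.02 (95% counting interval -0.10 to 0.06). Ifi44 had 45 counts in GFP+ replicate 19 and 41 in GFP- replicate 20, a log2 ratio of 0.07 (-0.57 to 0.72).

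None of the sensors passed the test. They are the RNA helicases Ddx58 (RIG-I), Ifih1 (MDA5) and Dhx58 (LGP2), the Z-form nucleic acid sensor Zbp1 and the DNA-binding proteins Ifi203 and Ifi204. Of the 6, edgeR called 0, with 0 at an unadjusted p under 0.05, and DESeq2 and limma-voom also called 0. Their log2 fold changes lay between -0.32 (Ddx58) and 0.09 (Ifi204), with standard errors of 0.21 to 0.41. Ddx58 had 39.2, 19.5 and 22.3 CPM in GFP+ libraries, against 51.7, 29.9 and 20.5 CPM in GFP- libraries. Zbp1 had 51.9, 65.4 and 76.0 CPM in GFP+ libraries, against 63.4, 42.5 and 86.1 CPM in GFP- libraries. In both genes the populations overlapped within the single-cell protocol. Dhx58 lay lower in GFP+ cells in all 5 comparisons, as did 19.3% of all tested genes, by a log2 fold change of -0.20 ± 0.21.

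All 4 immunity-related GTPases had lower values in GFP+ cells, between -0.70 and -0.45 on the log2 scale, but edgeR called 0 of them, 2 at an unadjusted p under 0.05, and limma-voom called 0. DESeq2 called 1, Ifi47 (DESeq2 adjusted p = 0.00681). Ifi47 (Irgd) had 90.0, 853 and 721 CPM in GFP+ libraries, against 152, 1393 and 1111 CPM in GFP- libraries (log2 fold change -0.70 ± 0.27, edgeR adjusted p = 0.136). Igtp (Irgm3) had 122, 836 and 874 CPM in GFP+ libraries, against 175, 1084 and 1315 CPM in GFP- libraries (log2 fold change -0.50 ± 0.26, edgeR adjusted p = 0.269). For both genes the populations did not overlap within a protocol, as for the 19.3% of all tested genes that were lower in all 5 comparisons. Iigp1 (Irga6) had 22.2, 20.6 and 25.5 CPM in GFP+ libraries, against 35.5, 49.6 and 25.4 CPM in GFP- libraries, so that GFP+ replicate 4 and GFP- replicate 5 were level (log2 fold change -0.70 ± 0.28, edgeR adjusted p = 0.147; 0.0156 without GFP- replicate 5). Irgm1, which guards the cell's own membranes from the other GTPases, had a log2 fold change of -0.45 ± 0.24.

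The guanylate-binding proteins differed from each other in the poly(A) pair. Gbp2 had 2418 counts in GFP+ replicate 19 and 5173 in GFP- replicate 20, a log2 ratio of -1.16 (95% counting interval -1.23 to -1.09). Gbp3 had 2583 counts in GFP+ replicate 19 and 2518 in GFP- replicate 20, a log2 ratio of -0.02 (-0.10 to 0.06). With 1 library of each population these values have no replicate check, and the intervals cover counting error only. Over all 41 members the pair's log2 ratio was above 1 for 1 member (Oas1a), where 14.1% of 15722 genes with at least 10 counts were, and below -1 for 3 (Usp18, Oasl1 and Gbp2), where 7.07% were. Its median over the members was -0.26, with 10 members above 0 and 31 below. The median and split of all genes in this pair were not computed, so a shift of the members cannot be read from these values.

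Levels between genes were compared per kilobase of gene length, as RPKM, which are TMM-scaled CPM per kilobase. Among the 37 members with values there, Ifi47 and Igtp were the most abundant in all 4 single-cell protocol libraries, whose table lists Bst2, Gbp2, Gbp3 and Ifi44 at 0, at 510 and 413 RPKM in GFP+ replicate 1, 431 and 432 in GFP+ replicate 4, against 833 and 536 in GFP- replicate 2 and 664 and 650 in GFP- replicate 5. In the poly(A) libraries Bst2 (66.1 RPKM), Lgals3bp (60.8), Igtp (60.1) and Ifi47 (53.8) led in GFP+ replicate 19, against Ifi47 (91.0), Igtp (86.4), Bst2 (68.7) and Lgals3bp (47.6) in GFP- replicate 20. Levels of one gene differed between protocols by log2 values of -3.76 (Ifi35) to 2.70 (Ifnar1), poly(A) over single-cell. Gene lengths in the single-cell protocol table stop at 3000 bases for 30.9% of genes, and how reads of longer genes were counted is not stated.

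No member's population effect was shown to differ between the protocols. A test of the interaction of population and protocol called 0 of 37 members in edgeR, 0 at an unadjusted p under 0.05, and 0% of all tested genes, with 2 residual degrees of freedom. In the 4 single-cell protocol libraries alone, edgeR called 1 member lower (Usp18), where 1.41% of genes were, and 0 higher, where 5.54% were, with 1 higher at an unadjusted p under 0.05.

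Libraries of one population differed in these genes as well. GFP- replicate 2 over GFP- replicate 5 had a log2 ratio above 1 for 7 of 37 members (18.9%), against 12.1% of all tested genes. It was below -1 for 4 members, against 1335 of the 10523 tested genes. The ratios ran from -1.80 (Oasl1) to 2.94 (Mx2), with a median size of 0.71, against 0.58 over all tested genes. GFP+ replicate 1 over GFP+ replicate 4 ran from -1.51 to 1.53, with a median size of 0.42, against 0.38 over all tested genes. Across the 37 members the ratio within GFP+ cells had the same sign as that within GFP- cells for 25, with Pearson's r = 0.78 across genes (0.44 across all tested genes). Genes are not independent replicates, and the libraries share protocol and amplification. The sign of r and the count of 25 depend on setting replicate 1 beside 2 and 4 beside 5, a pairing that the labels do not give.

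**Figure D3:**
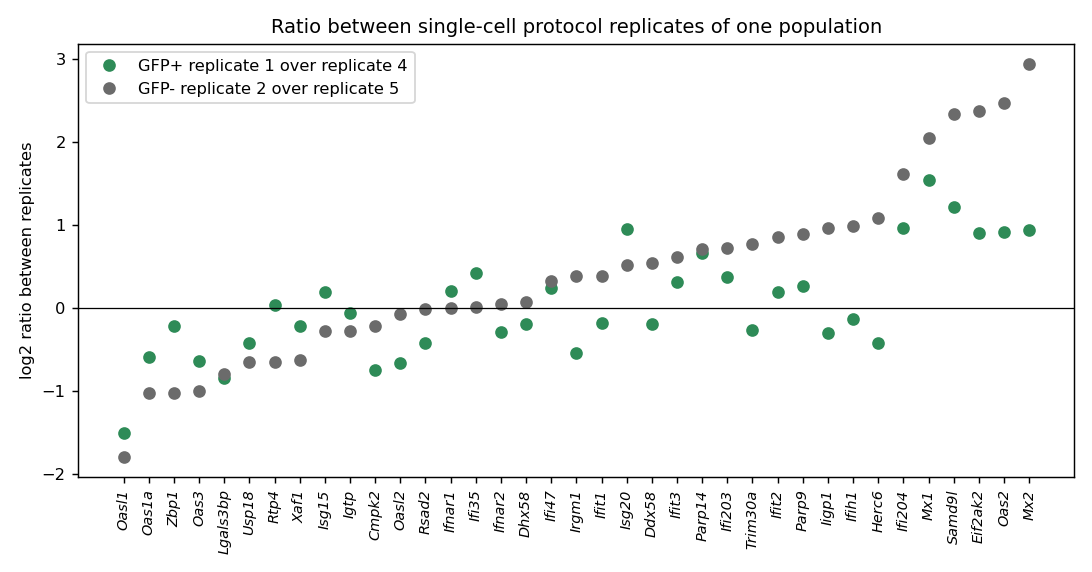
Log2 ratio between the single-cell protocol replicates of one population for each of the 37 tested members on the vertical axis, GFP+ replicate 1 over 4 in green and GFP- replicate 2 over 5 in grey, ordered by the GFP- ratio. Grey points run from -1.80 (Oasl1) to 2.94 (Mx2), and green and grey have the same sign for 25 of 37 members.

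Genes above the members in the pathway were read from further lists. Of 17 interferon genes in the tables, 14 had 0 counts in all 4 single-cell protocol libraries and Ifnb1 had 0 in all 6. Ifng alone could be tested, with 1.65, 4.09 and 3.84 CPM in GFP+ libraries, against 1.48, 2.54 and 3.17 CPM in GFP- libraries (log2 fold change 0.37 ± 0.29, not called). Of 19 tested signalling genes 2 fell in GFP+ cells (10.5%, against 3.68% of all tested genes) and 0 rose (against 9.81%). At an unadjusted p under 0.05 edgeR had 0 higher, and DESeq2 and limma-voom called 0 higher. The median log2 fold change of the 19 genes was -0.30, against -0.08 over all tested genes.

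Socs3, a feedback inhibitor of cytokine receptors, had 85.6, 16.4 and 27.1 CPM in GFP+ libraries, against 163, 52.9 and 69.5 CPM in GFP- libraries (log2 fold change -1.30 ± 0.28, edgeR adjusted p = 0.0151). Ifngr2, the signalling chain of the interferon gamma receptor, had 13.2, 4.01 and 6.45 CPM in GFP+ libraries, against 26.7, 11.3 and 9.62 CPM in GFP- libraries (log2 fold change -1.01 ± 0.25, edgeR adjusted p = 0.0325). In the single-cell protocol libraries alone Ifngr2 did not pass (edgeR adjusted p = 0.242), while Socs3 did (edgeR adjusted p = 0.0418). Both were lower in GFP+ cells in all 5 comparisons, as were 19.3% of all tested genes. Irf9 (log2 fold change -0.59 ± 0.24) and Irf7 (-0.45 ± 0.20) were also lower in all 5 without passing the test (edgeR adjusted p = 0.151 and 0.183). Ikbke and Socs1 had log2 fold changes of -0.94 and -0.51, and neither passed the test. Stat2, named here as part of the complex that binds the ISRE, had -0.26 and did not pass either.

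The rest of the response was taken from a list of 95 other interferon-stimulated genes, of which 80 were tested. Of these 9 rose in GFP+ cells (11.3%, against 9.81% of all tested genes) and 5 fell (6.25%, against 3.68%). Their median log2 fold change was -0.11, against -0.08 over all tested genes. Those that rose included Fgl2 (3.17 ± 0.25), a secreted product of Treg and macrophages, the chemokines Cxcl9 (3.08 ± 0.56) and Ccl5 (2.43 ± 0.42), Ifitm3 (1.88 ± 0.41), which blocks viral entry, and Tmem140 (1.27 ± 0.24). Cxcl9 stood at 0.509, 1.72 and 4.28 CPM in GFP+ libraries, against 0.0869, 0.217 and 0.380 CPM in GFP- libraries. Macrophages express several of these genes, and the macrophage markers given above were higher in the same libraries. The part of macrophage RNA in these values was not tested. Those that fell were Slfn1 (-1.99 ± 0.23), a gene linked to T cell quiescence in mice, Parp11 (-1.06 ± 0.22), the nuclear body proteins Sp110 (-1.05 ± 0.22) and Sp140 (-0.97 ± 0.22), and the restriction factor Trim5 (-1.02 ± 0.29). Trim5 passed narrowly (edgeR adjusted p = 0.0499) and did not pass in the single-cell protocol libraries alone (edgeR adjusted p = 0.156).

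**Figure D4:**
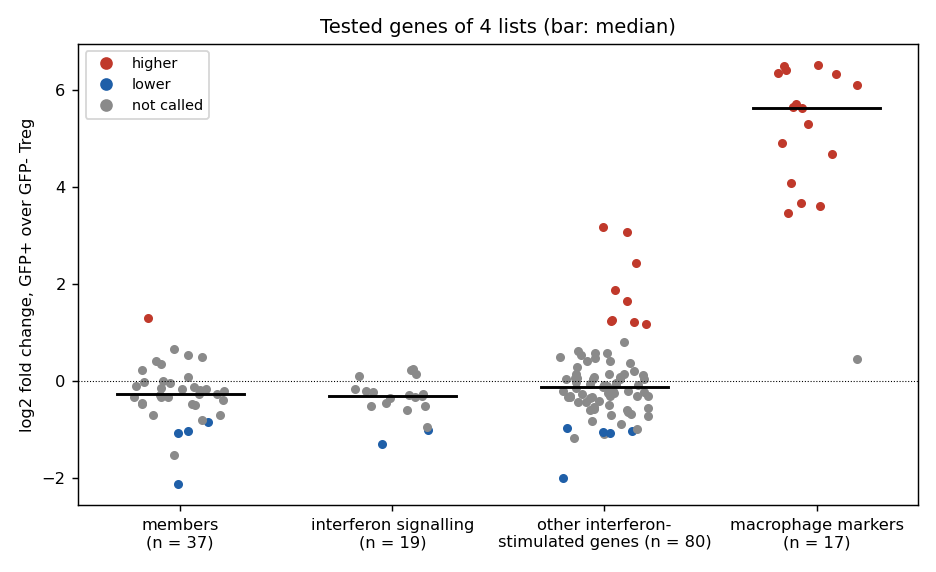
Log2 fold change of GFP+ over GFP- cells for each tested gene of 4 lists, with a bar at the median: members (-0.26), signalling genes (-0.30), other interferon-stimulated genes (-0.11) and macrophage markers (5.63). Red and blue points passed the test as higher and lower in GFP+ cells; all macrophage markers but Cybb are red.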

How the data were processed

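RNA of sorted GFP+ and GFP- Treg was measured in 6 libraries. The authors deposited raw counts per Entrez gene in one table for each protocol, and log2 RPKM per library, which served only as an alternative. Per the submitters' processing notes, Subread, featureCounts and edgeR were used with build mm9; no version or strand setting is given, so reads of overlapping genes may be shared. The tables held 26286 genes, 540 of them without a symbol.

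Counts were analysed with edgeR 4.0.16, limma 3.58.1 and DESeq2 1.42.0 in R 4.3.3. filterByExpr by population kept 10523 genes, and TMM factors were 2.06, 0.697 and 0.784 in GFP+ libraries, against 2.02, 0.846 and 0.519 in GFP- libraries. The quasi-likelihood F-test had the protocol as covariate and 3 residual degrees of freedom, with Benjamini-Hochberg adjustment over all tested genes. Standard errors derive from the F statistic. For the poly(A) pair, log2 ratios of CPM of all counts (0.5 added) carry exact binomial intervals. The test was checked on simulated data with 100 genes changed 2-fold and 100 changed 4-fold. Of the genes it called there, 3.39% were unchanged.

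The members, gene lists and naming rule were chosen with earlier results of these data known. The rule names every member, Prdm1, the genes with the smallest p of each other list (up to 6 for signalling, 8 for other interferon-stimulated genes, 4 for a marker list) and any that make up a count of 5 or fewer. Beside macrophage markers, the genes higher in GFP+ cells were 1 of 9 tested Treg markers (Ctla4), 2 of 6 plasmacytoid dendritic cell markers (Lair1 and Runx2, with Pacsin1 lower), 2 of 3 conventional dendritic cell markers (Itgax, H2-Ab1), 1 of 3 monocyte and neutrophil markers (Cd14), 1 of 6 B cell markers (Blk), 2 of 6 plasma cell markers (Sdc1, Irf4), 1 of 3 natural killer cell markers (Gzma, with Ncr1 lower), 0 of 2 CD8 T cell markers (Cd8a was lower) and 2 of 4 erythroid markers (Hba-a1, Hba-a2). Alternatives were other scalings, tools, filters and covariates, and leaving out each library.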

Additional observations from a re-analysis of the deposited data

How the results depend on the processing

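The edgeR count of all called genes was 1419. It was 2494 with no filter on low counts, 139 with no protocol covariate, 711 in the single-cell protocol libraries alone and between 721 and 2184 without one library. Members called higher and lower numbered 1 and 4. With no protocol covariate these were 0 and 0 (0 and 3 at an unadjusted p under 0.05 in edgeR). They were 0 and 1 in the single-cell protocol libraries alone, and members lower numbered 1 with library totals only. Without one library, members higher ranged from 0 to 1 and members lower from 1 to 5. Usp18 was called under every alternative except the fit with no protocol covariate (edgeR adjusted p = 0.188), with log2 fold changes of -2.29 to -1.90 without one library. For the other interferon-stimulated genes, 9 were higher and 5 lower. With no protocol covariate these were 0 and 0 (3 and 2 at an unadjusted p under 0.05), in the single-cell protocol libraries alone 4 and 1, and without one library 4 to 11 and 1 to 13. Those called lower numbered 3 with library totals only, 10 with no filter and 10 with DESeq2. Where libraries were left out, fewer samples entered the fit, and leaving out either poly(A) library leaves the other with no bearing on the population. For the other settings the cause was not tested.

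The populations share no replicate numbers in the labels, which give no pairing. A fit with a replicate block of consecutive title numbers (19 with 20, 1 with 2, 4 with 5), chosen after seeing the data and not stated by the labels as a pairing, gave 2921 called genes, 15.8% of all tested genes higher and 12% lower. It called 2 of 37 members higher (Oas1a, and Rsad2 with edgeR adjusted p = 0.0465), 7 members lower and 16 other interferon-stimulated genes lower. Beside the 4 members called lower without the block, these were Oasl1, Ifi47 and Ifnar1 (edgeR adjusted p = 0.00114, 0.0483 and 0.0349).

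Some members that were not called changed sign, and the cause was not tested. The log2 fold change of Oas3 was 0.15 with library totals only, 0.034 with limma-voom and 0.016 in the single-cell protocol libraries alone. Mx1 had 0.026 and Mx2 0.11 with limma-voom, Mx2 0.20 with limma on the deposited log2 RPKM, and Mx1 0.061 with the replicate block. Rtp4 had 0.012 with library totals only. Zbp1 had 0.17 with library totals only, 0.0036 with no filter, 0.069 with limma-voom, 0.010 with no protocol covariate, 0.12 in the single-cell protocol libraries alone and 0.044 with the replicate block. Without one library the ranges that crossed 0 were -0.29 to 0.26 for Oas3, -0.45 to 0.59 for Mx1, -0.48 to 0.57 for Mx2, -0.72 to 0.45 for Samd9l, -0.34 to 0.04 for Rtp4, -0.37 to 0.11 for Ifih1, -0.31 to 0.28 for Zbp1, -0.24 to 0.63 for Ifi204, -0.40 to 0.10 for Herc6, -0.32 to 0.16 for Parp9 and -0.41 to 0.0012 for Parp14. Oas2 had at most 1.28 CPM in any library, and what depth limits was not tested.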
